A study of Mus musculus with 30 samples.

Results

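MHC class I molecules carry peptides from inside the cell to its surface. They were followed here at the transcript level in the mouse dendritic cell line labelled DC3.2, through 5 genes: the heavy chain genes H2-K1, H2-D1 and H2-T23, the light chain gene B2m, and Nlrc5, the transactivator of class I genes. The genes were chosen by symbol, and all 5 stood among the 31427 symbols of the deposited table. All 5 passed the filter of at least 1 TPM in at least 2 libraries and were among the 11842 genes tested in the 24 replicated libraries and the 10410 examined in 6 libraries with no replicate. The titles of the replicated libraries begin with DC32R and those of the others with Dc3.2. The replicated libraries form 12 groups of 2, from 4 genotypes and 3 treatments. DKO cells had both of the interferon regulatory factors IRF1 and IRF2 targeted, IRF2KO cells had IRF2 and IRF1KO cells IRF1 targeted, and WT cells are titled nosg, while IRF1sg and IRF2sg stand in the titles of the knockouts. Each was kept for 2 h with IFNγ at 2 ng/mL, with IFNα at 5000 U/mL or in media alone. The single libraries hold IRF2KO and WT cells after 2 h with LPS at a dose that is not labelled, after 2 h with IFNα, and at 0 h. The labels name no targeting control and do not say whether a line is 1 clone or whether a group's 2 replicates were cultured separately, so p-values measure the spread between these libraries only. The study set out to find genes whose transcripts depend on IRF1, IRF2 or both, before and after interferon.

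A classical class I heavy chain folds with the light chain β2-microglobulin around a peptide, and CD8 T cells read the complex at the cell surface. H2-K1 and H2-D1 encode classical heavy chains, and H2-T23 encodes Qa-1, a nonclassical heavy chain that presents signal peptides of other class I chains to receptors on natural killer cells. B2m encodes β2-microglobulin, which all 3 chains need to reach the surface. NLRC5 is itself induced by interferon and acts at the SXY module of class I promoters, beside sites for IRF proteins and NF-κB. Interferon and IRF1 are textbook inducers of class I genes, and dendritic cells keep class I high because they present antigen to CD8 T cells.

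On GRCm38.p6, H2-K1 (chromosome 17, 33996012 to 34000619), H2-D1 (chromosome 17, 35263094 to 35267497) and H2-T23 (chromosome 17, 36029977 to 36032701) lie in the MHC. B2m lies on chromosome 2 (122147687 to 122153082) and Nlrc5 on chromosome 8 (94434335 to 94527272). The 200 bases before a start annotated in the promoter table are shown for 4 of the genes, that of H2-K1 lying inside the outer bounds of the gene given above, because IRF1 and IRF2 are known to bind sites of one kind, and because the levels of H2-K1 and H2-D1 moved together. Capitals mark matches to the IRF core AANNGAAA on either strand, and sequences are from RefSeq on GRCm38.p6, each on the strand of its gene: chr17:34000348-34000547 (minus) for H2-K1, chr17:35262894-35263093 (plus) for H2-D1, chr17:36032702-36032901 (minus) for H2-T23 and chr2:122147487-122147686 (plus) for B2m.
H2-K1: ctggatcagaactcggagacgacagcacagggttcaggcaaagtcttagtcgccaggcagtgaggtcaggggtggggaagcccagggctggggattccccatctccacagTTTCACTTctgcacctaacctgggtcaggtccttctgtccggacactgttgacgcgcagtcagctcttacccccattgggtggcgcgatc
H2-D1: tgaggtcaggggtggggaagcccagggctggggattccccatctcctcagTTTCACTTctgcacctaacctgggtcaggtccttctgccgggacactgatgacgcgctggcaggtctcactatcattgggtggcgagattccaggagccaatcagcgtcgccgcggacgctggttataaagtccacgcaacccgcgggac
H2-T23: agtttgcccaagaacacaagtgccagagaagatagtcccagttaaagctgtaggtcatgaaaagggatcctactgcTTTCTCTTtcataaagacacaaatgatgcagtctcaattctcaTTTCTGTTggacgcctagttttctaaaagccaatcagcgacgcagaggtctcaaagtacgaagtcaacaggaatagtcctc
B2m: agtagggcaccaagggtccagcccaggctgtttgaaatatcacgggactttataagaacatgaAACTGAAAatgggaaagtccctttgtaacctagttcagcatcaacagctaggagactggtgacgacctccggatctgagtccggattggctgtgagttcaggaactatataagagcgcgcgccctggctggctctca
H2-K1 and H2-D1 read the same letters, TTTCACTT, at the IRF core, and in both the SXY module's X2 core TGACG starts 49 bases after the first base of that match. B2m has AACTGAAA, with TGACG starting 59 bases after its first base. H2-T23 has 2 IRF cores, TTTCTCTT and TTTCTGTT, and no TGACG. Searched on both strands over windows from 250 bases before to 50 after the start, AANNGAAA stood in 4 of these 4 promoters and in 24.2% of 27025 promoters. TGACG stood in 3 of 4, against 21.02% of all, CCAAT in 4 of 4, against 37.9%, and the NF-κB letters GGGNNNNCC in 2 of 4, H2-K1 and H2-D1, against 43.3%, with matches that overlap one another and lie beside the IRF core. The GAS element TTCNNNGAA, a site of interferon-induced promoters, stood in 0 of 4, against 8.47% of all promoters. A match is a run of letters and no evidence of binding.

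All values are TPM, a share of each library scaled for transcript length. The unit holds no read totals, and the depth of a library is unknown. In bulk RNA, fewer cells of a kind and less RNA per cell cannot be told apart. Differences are on the scale of log2(TPM + 1), which understates changes of low genes such as Nlrc5, with their SE, n = 2 libraries a group, and p-values from limma adjusted by Benjamini-Hochberg over all 11842 genes. An adjusted p under 0.05 made a call. The share of all tested genes called in either direction stands beside most counts of members. How often the libraries of all genes separate between groups was not counted in any comparison. Of the dendritic cell markers listed, 9 of 13 were tested, with Cd74, the invariant chain of class II, at 3623 to 5097 TPM, while Flt3, a receptor for a dendritic cell growth factor, was at 0 in all 24 libraries. The macrophage markers Lyz2 (1119 to 1906 TPM) and Csf1r (167 to 377 TPM) were plentiful, and the summed lymphocyte and fibroblast markers stayed at or under 0.33 and 0.26 TPM. Irf1 in media had 28.1 and 36.01 TPM in DKO and 30.6 and 23.6 in IRF1KO, against 19.7 and 22.5 in WT, and Irf2 had 20.1 and 20.96 TPM in DKO and 18.2 and 17.4 in IRF2KO, against 23.4 and 25.2 in WT. The mRNA level can stay as it was after an edit of the coding sequence, and it therefore does not check the genotype labels.

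H2-K1 and H2-D1 were lower in DKO cells than in WT cells under all 3 treatments, by −0.71 to −0.78 and by −0.39 to −0.47 on the log2 scale. Replicates of H2-T23 differed by up to 5.31-fold, and neither it nor B2m nor Nlrc5 was called between any mutant and WT. In the single knockouts, 0 of the 5 genes were called against WT under any treatment. Of the 5 genes, only Nlrc5 was called between interferon and media, and it was higher with IFNγ than in media in all 4 genotypes.

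**Figure D1:**
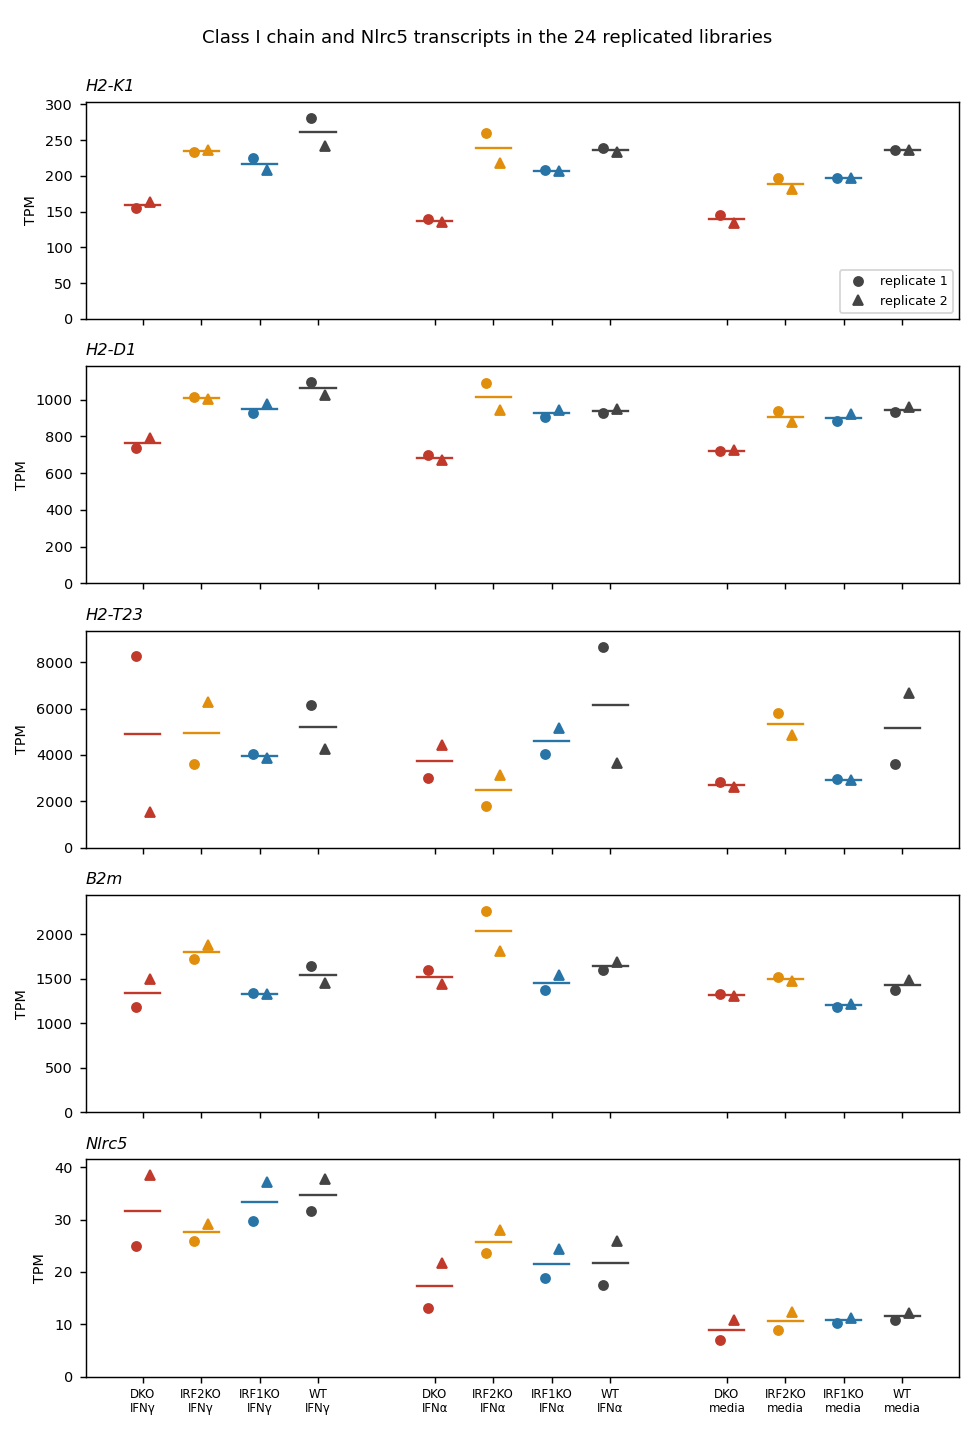
TPM (linear axes from 0) of the 5 genes in the 24 replicated libraries, by treatment and genotype, with circles for replicate 1, triangles for replicate 2 and lines for the mean of both. The DKO libraries of H2-K1 and H2-D1 lie under all others, Nlrc5 is highest with IFNγ, and the H2-T23 replicates lie far apart in several groups.

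With IFNγ, H2-K1 stood at 155 and 163 TPM in DKO, 234 and 237 TPM in IRF2KO and 225 and 209 TPM in IRF1KO, against 281 and 241 TPM in WT. With IFNα, it stood at 139 and 135 TPM in DKO, 259 and 217 TPM in IRF2KO and 208 and 207 TPM in IRF1KO, against 239 and 234 TPM in WT. In media, it stood at 146 and 134 TPM in DKO, 197 and 182 TPM in IRF2KO and 197 and 197 TPM in IRF1KO, against 237 and 236 TPM in WT. The 6 DKO libraries, from 134 to 163 TPM, did not overlap with the 18 others, from 182 to 281 TPM. How many of all genes separate in this way was not counted. The H2-K1 difference of DKO from WT was −0.71 ± 0.09 (adjusted p = 0.00032) with IFNγ, −0.78 ± 0.09 (adjusted p = 0.000147) with IFNα and −0.75 ± 0.09 (adjusted p = 0.000279) in media, in limma's fit. These 3 calls held when any 1 of the compared libraries was left out.

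H2-D1, the more abundant of the classical chains, had with IFNγ 735 and 793 TPM in DKO, 1017 and 1005 TPM in IRF2KO and 929 and 975 TPM in IRF1KO, against 1095 and 1028 TPM in WT. With IFNα it had 697 and 669 TPM in DKO, 1092 and 942 TPM in IRF2KO and 907 and 946 TPM in IRF1KO, against 926 and 952 TPM in WT. In media it had 720.3 and 726 TPM in DKO, 937 and 880.0 TPM in IRF2KO and 883 and 920.0 TPM in IRF1KO, against 932 and 961 TPM in WT. Again the 6 DKO libraries, from 669 to 793 TPM, lay below the 18 others, from 880.0 to 1095 TPM, with no overlap. The share of all genes that do so was not counted here either. The H2-D1 difference of DKO from WT was −0.47 ± 0.08 (adjusted p = 0.00424) with IFNγ, −0.46 ± 0.08 (adjusted p = 0.00701) with IFNα and −0.39 ± 0.08 (adjusted p = 0.0336) in media in limma's fit. Each is nearer 0 than that of H2-K1, and the difference between the genes was not tested. The ratio of H2-D1 to H2-K1 ran from 3.88 to 5.41 over the 24 libraries. These calls rest on few libraries. That with IFNγ was lost without WT replicate 1 (−0.43, adjusted p = 0.0744). That with IFNα was lost without DKO replicate 2 (−0.43, adjusted p = 0.0775) or without WT replicate 2 (−0.44, adjusted p = 0.0755). In media it was lost without any 1 of the 4 libraries compared (adjusted p from 0.191 to 0.281).

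Between DKO and WT, 2 of the 5 genes were called in each treatment, H2-K1 and H2-D1, while 1.31% of all genes were called with IFNγ, 1.05% with IFNα and 0.76% in media. Over the 12 group means, H2-K1 was most like H2-D1 among 9339 genes of at least 5 TPM (Pearson r = 0.974), followed by Psme2, a subunit of the proteasome activator PA28 (r = 0.959), and Erap1, which trims peptides in the endoplasmic reticulum (r = 0.940). H2-D1 was next most like Erap1 (r = 0.915) and Psme2 (r = 0.906). Spearman correlations, which use ranks, were lower. They were 0.937 between H2-K1 and H2-D1, and 0.888 and 0.762 for H2-K1 with Psme2 and Erap1. For H2-D1 they were 0.629 with Erap1 and 0.762 with Psme2. The points are 12 means of 2 libraries each that share their genotypes and treatments, and reads of near-identical chains may be split between them: of the 50-base words of 1 transcript, 6.94% in H2-K1 also stand in H2-D1.

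H2-T23 had the highest mean of the 5 genes, 4345 TPM over the 24 libraries, and the widest spread between replicates. With IFNγ it had 8274 and 1558 TPM in DKO, 3622 and 6272 TPM in IRF2KO and 4051 and 3862 TPM in IRF1KO, against 6144 and 4254 TPM in WT. With IFNα it had 3026 and 4439.5 TPM in DKO, 1811 and 3150.2 TPM in IRF2KO and 4044 and 5169 TPM in IRF1KO, against 8666 and 3674 TPM in WT. In media it had 2831 and 2607 TPM in DKO, 5802 and 4856 TPM in IRF2KO and 2955 and 2924 TPM in IRF1KO, against 3614 and 6678 TPM in WT. Replicates differed by up to 5.31-fold, in DKO cells with IFNγ, and by over 1.5-fold in 5 of 12 groups, whereas H2-K1 and H2-D1 replicates differed by at most 1.19-fold and 1.16-fold. Its residual SD of 0.65 on the log2 scale was exceeded by 40 of 1827 genes with a mean of at least 100 TPM, whose median SD was 0.14. Both WT libraries lay above both of DKO and of IRF1KO in media, of IRF2KO with IFNα and of IRF1KO with IFNγ, and in the other comparisons of a mutant with WT the libraries overlapped. No H2-T23 difference was called. The 1 difference from WT of at least 2 SE was that of IRF2KO with IFNα (−1.24 ± 0.58, adjusted p = 0.531), where 1 WT library stood at 8666 TPM and the other at 3674 TPM, and leaving out 1 library moved it from −0.62 to −1.86.

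The H2-T23 values moved with those of genes outside the class I pathway. Over the 12 group means its nearest genes were Chpt1, an enzyme of phosphatidylcholine synthesis (r = 0.990), Pbld1 (r = 0.990) and AK134203 (r = 0.989), and over the 24 libraries its correlation was 0.975 with Chpt1, against 0.156 with H2-D1 and 0.247 with H2-K1. Chpt1 ran from 316 to 2305 TPM in the replicated libraries and from 3.35 to 8.31 TPM in the single ones, which were quantified against another transcript set, and AK134203 from 12.8 to 104 TPM and 0 in all 6. H2-T23 itself ran from 1558 to 8666 TPM in the replicated libraries and from 117 to 222 TPM in the single ones. It made up 54.0% to 89.2% of the summed TPM of all class I heavy chains in the replicated libraries and 14.5% to 22.98% in the single ones. Of the 50-base words of a H2-T23 transcript, 28.8% also stand in transcripts of other genes, against 8.79% for H2-K1, 14.3% for H2-D1 and 0% for B2m and Nlrc5. The part of the quantification in these values was not tested, and no reading of H2-T23 between genotypes is given.

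**Figure D2:**
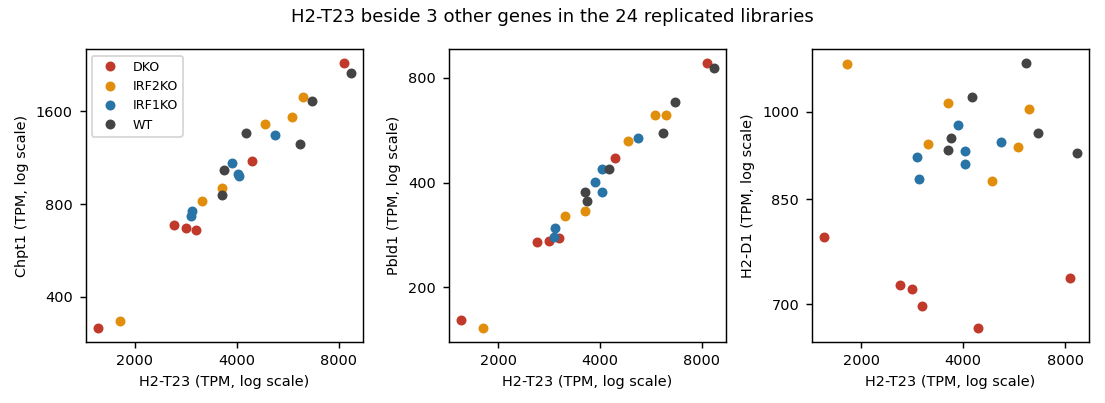
TPM of Chpt1, Pbld1 and H2-D1 (vertical, log scale) against H2-T23 (horizontal, log scale), 1 point per replicated library, coloured by genotype. Chpt1 and Pbld1 follow H2-T23 from library to library, with correlations of 0.975 and 0.990 on log2(TPM + 1), and H2-D1 does not (0.156).

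The sum of all 23 class I heavy chains therefore follows H2-T23. In media the log2 ratio of summed TPM, DKO over WT, was −0.76 with H2-T23 and −0.38 without it, a choice made after its spread was seen. With IFNα the ratio of IRF2KO over WT was −0.86 with H2-T23 and 0.16 without it. Without H2-T23 the sum ran from 936 to 1541 TPM over the 24 libraries.

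B2m, the light chain, stood at 1.03 to 1.64 times the summed heavy chains other than H2-T23 in the 24 libraries. With IFNγ it had 1181 and 1502 TPM in DKO, 1726 and 1885 TPM in IRF2KO and 1337 and 1328 TPM in IRF1KO, against 1639.6 and 1457 TPM in WT. With IFNα it had 1605 and 1437 TPM in DKO, 2263 and 1809 TPM in IRF2KO and 1369 and 1542 TPM in IRF1KO, against 1599 and 1686 TPM in WT. In media it had 1327 and 1304 TPM in DKO, 1522 and 1473 TPM in IRF2KO and 1186 and 1217 TPM in IRF1KO, against 1374 and 1487 TPM in WT. DKO and WT libraries overlapped with IFNγ and with IFNα, and did not in media, where both DKO libraries lay below both of WT by less than 2 SE. The IRF2KO libraries lay above those of the other genotypes under each interferon, a separation not counted over all genes. With IFNγ the difference from WT was under 2 SE and not called. With IFNα it was 0.30 ± 0.12 (adjusted p = 0.454) in limma's fit, also not called, and ran from 0.14 to 0.46 when 1 library was left out. IRF1KO libraries were lowest in media, with a difference from WT of −0.25 ± 0.12 (adjusted p = 1). B2m was most like Enpp4 (r = 0.964), Tapbp, which encodes the peptide-loading chaperone tapasin (r = 0.944), and Idnk (r = 0.929).

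Nlrc5 was the least abundant of the genes and the one with called responses to interferon. With IFNγ it had 24.9 and 38.5 TPM in DKO, 25.9 and 29.3 TPM in IRF2KO and 29.7 and 37.2 TPM in IRF1KO, against 31.7 and 37.9 TPM in WT. With IFNα it had 13.2 and 21.6 TPM in DKO, 23.6 and 28.1 TPM in IRF2KO and 18.8 and 24.4 TPM in IRF1KO, against 17.5 and 25.9 TPM in WT. In media it had 7.06 and 10.8 TPM in DKO, 8.88 and 12.3 TPM in IRF2KO and 10.3 and 11.2 TPM in IRF1KO, against 10.9 and 12.2 TPM in WT. DKO and WT libraries overlapped with IFNγ and IFNα, and in media both DKO libraries were below both of WT, by less than 2 SE. Replicate 2 was above replicate 1 in 12 of 12 groups, by 1.09 to 1.64 times, and the replicate numbers carry a date-like code in the titles.

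In the single knockouts against WT, 0 of the 5 genes were called by limma in any treatment. For IRF2KO, 0.802% of all genes were called with IFNγ, 0.971% with IFNα and 0.836% in media, and 0, 2 and 1 of the 5 had an unadjusted p under 0.05. For IRF1KO, 0.236%, 0.177% and 0% of all genes were called, in the same order of treatments, and 1, 0 and 1 of the 5 had an unadjusted p under 0.05. In media, where 0 genes were called for IRF1KO, 305 of all genes had one. The largest H2-K1 differences were −0.32 ± 0.09 (adjusted p = 0.252) for IRF2KO in media, −0.26 ± 0.09 (adjusted p = 1) for IRF1KO in media and −0.26 ± 0.09 (adjusted p = 1) for IRF1KO with IFNγ. In media the H2-K1 libraries of each single knockout lay between those of DKO and WT with no overlap.

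**Figure D3:**
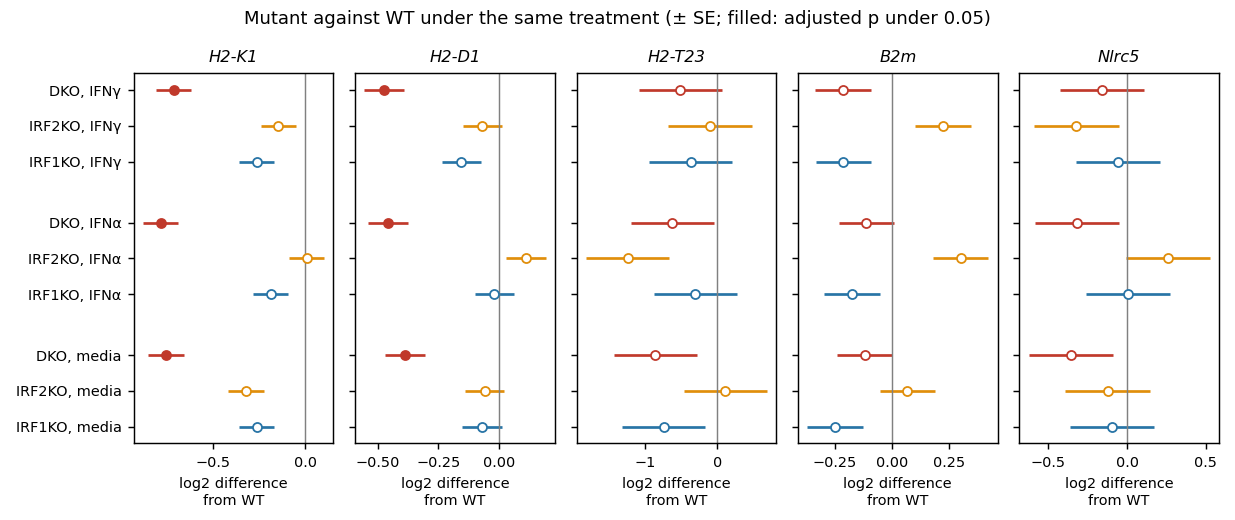
Differences of log2(TPM + 1), DKO, IRF2KO and IRF1KO each minus WT under the same treatment, with SE from limma, on a scale of its own for each gene. Filled points were called, and these are the 3 DKO differences of H2-K1 and of H2-D1.

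For H2-K1 and H2-D1, DKO cells were also below the cells with 1 factor targeted. This did not hold for all 5 genes. In media B2m stood at 1327 and 1304 TPM in DKO, above 1186 and 1217 TPM in IRF1KO. Against IRF2KO with IFNγ, H2-K1 differed by −0.56 ± 0.09 (adjusted p = 0.00738) and H2-D1 by −0.40 ± 0.08 (adjusted p = 0.0311), the 2 genes called of 5, with 0.481% of all genes. After quantile normalization 1 of them was called, H2-K1. Against IRF2KO with IFNα the same 2 were called, H2-K1 at −0.79 ± 0.09 (adjusted p = 0.00034) and H2-D1 at −0.57 ± 0.08 (adjusted p = 0.00188), with 0.38% of all genes. In media 0 of 5 were called against IRF2KO by limma, with 0.118% of all genes and 2 of the 5 at an unadjusted p under 0.05. There H2-K1 had −0.43 ± 0.09 (adjusted p = 0.191), and its adjusted p was 0.0410 once the replicate number was a block. In that comparison the median of all genes stood at 0.13, so a difference relative to the median gene is larger: with median-ratio scaling both H2-K1 and H2-D1 were called. H2-D1 had −0.33 ± 0.08 (adjusted p = 0.378) without that scaling. B2m had −0.44 ± 0.12 (adjusted p = 0.338) with IFNγ, which was called after median-ratio scaling, and −0.41 ± 0.12 (adjusted p = 0.51) with IFNα. Nlrc5 had −0.58 ± 0.27 (adjusted p = 1) with IFNα, which ran from −0.24 to −0.91 when 1 library was left out. Over such fits the B2m values ran from −0.26 to −0.61 with IFNγ and from −0.25 to −0.58 with IFNα.

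Against IRF1KO with IFNγ, H2-K1 was called at −0.45 ± 0.09 (adjusted p = 0.0373), 1 of 5, with 0.819% of all genes, and H2-D1 had −0.32 ± 0.08 (adjusted p = 0.104), which was called with the replicate block (adjusted p = 0.0425). With IFNα 2 of 5 were called, H2-K1 at −0.59 ± 0.09 (adjusted p = 0.00326) and H2-D1 at −0.44 ± 0.08 (adjusted p = 0.0111), with 0.844% of all genes. In media H2-K1 was called at −0.49 ± 0.09 (adjusted p = 0.0211), 1 of 5, with 0.667% of all genes, and H2-D1 had −0.32 ± 0.08 (adjusted p = 0.114), which was called with the block (adjusted p = 0.0497). These comparisons and those with WT share the DKO libraries.

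Among the comparisons of DKO with a single knockout, the H2-K1 call against IRF2KO with IFNα held without any 1 library, and that of H2-D1 was lost without IRF2KO replicate 1 (−0.46, adjusted p = 0.0662). With IFNγ against IRF2KO, H2-D1 was lost without any 1 of the 4 libraries (adjusted p from 0.0641 to 0.315), and H2-K1 without DKO replicate 1 or either IRF2KO library (adjusted p from 0.0663 to 0.0881). Against IRF1KO, H2-K1 was lost without any 1 of the 4 libraries in media (adjusted p from 0.0718 to 0.311) and with IFNγ (adjusted p from 0.0922 to 0.302). With IFNα, H2-K1 was lost without IRF1KO replicate 1 (−0.59, adjusted p = 0.0502), and H2-D1 without any 1 of the 4 (adjusted p from 0.0697 to 0.138). Fitted on the compared groups alone, 0 of the 19 calls of these genes held (adjusted p from 0.0744 to 1).

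Of the 5 genes, interferon raised Nlrc5 beyond the threshold and no other. Over genotypes, Nlrc5 ran from 24.9 to 38.5 TPM with IFNγ, from 13.2 to 28.1 TPM with IFNα and from 7.06 to 12.3 TPM in media, so the 8 libraries in media overlapped with neither interferon, while those of the interferons overlapped with each other. With IFNγ against media, Nlrc5 was higher by 1.71 ± 0.27 (adjusted p = 0.00255) in DKO, by 1.31 ± 0.27 (adjusted p = 0.0197) in IRF2KO, by 1.55 ± 0.27 (adjusted p = 0.00544) in IRF1KO and by 1.51 ± 0.27 (adjusted p = 0.00553) in WT. It was the 1 gene of 5 called in each, while 0.777% of all genes were called in DKO, 1.13% in IRF2KO, 1.16% in IRF1KO and 1.26% in WT. Irf1 was higher in WT by 4.40 ± 0.17 (adjusted p = 1.34e-10), with means of 469.8 TPM with IFNγ and 21.1 TPM in media.

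With IFNα against media, Nlrc5 was called in IRF2KO, at 1.22 ± 0.27 (adjusted p = 0.0275), 1 of 5 genes with 1.39% of all genes. It had 0.88 ± 0.27 (adjusted p = 0.311) in DKO, 0.94 ± 0.27 (adjusted p = 0.243) in IRF1KO and 0.84 ± 0.27 (adjusted p = 0.392) in WT. With the replicate number as a block, all 3 were called, with adjusted p of 0.00156 in DKO, 0.00101 in IRF1KO and 0.00236 in WT. Without the block 0 of 5 genes were called by limma in these genotypes, with 1.01% of all genes in DKO, 0.819% in IRF1KO and 1.04% in WT, and 1, 2 and 1 of the 5 had an unadjusted p under 0.05. IFNγ gave a higher Nlrc5 level than IFNα in WT by 0.68 ± 0.27 (adjusted p = 0.778), which was called with the block (adjusted p = 0.0189). There 0 of 5 were called without it, with 0.768% of all genes and 2 of the 5 at an unadjusted p under 0.05.

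Without the block, each of the called Nlrc5 responses lost its call when certain libraries were left out, with log2 differences that remained positive. In DKO with IFNγ the call was lost without IFNγ replicate 2 (1.41, adjusted p = 0.0538) or media replicate 1 (1.44, adjusted p = 0.0800). In WT it was lost without IFNγ replicate 2 (1.39, adjusted p = 0.0813) or media replicate 1 (1.44, adjusted p = 0.0762). In IRF1KO it was lost without IFNγ replicate 2 (1.39, adjusted p = 0.0913) or either media library (1.49 and 1.60, adjusted p = 0.0571 and 0.0531). In IRF2KO it was lost without media replicate 1 or either treated library, with log2 differences of 1.10 to 1.40 and adjusted p from 0.116 to 0.315 with IFNγ. With IFNα its log2 differences were then 1.34 and 1.10 without treated replicate 1 and 2 and 1.002 without media replicate 1, and adjusted p ran from 0.117 to 0.462. The uncalled IFNα values ran from 0.54 to 1.22 in DKO, from 0.76 to 1.12 in IRF1KO and from 0.57 to 1.11 in WT.

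**Figure D4:**
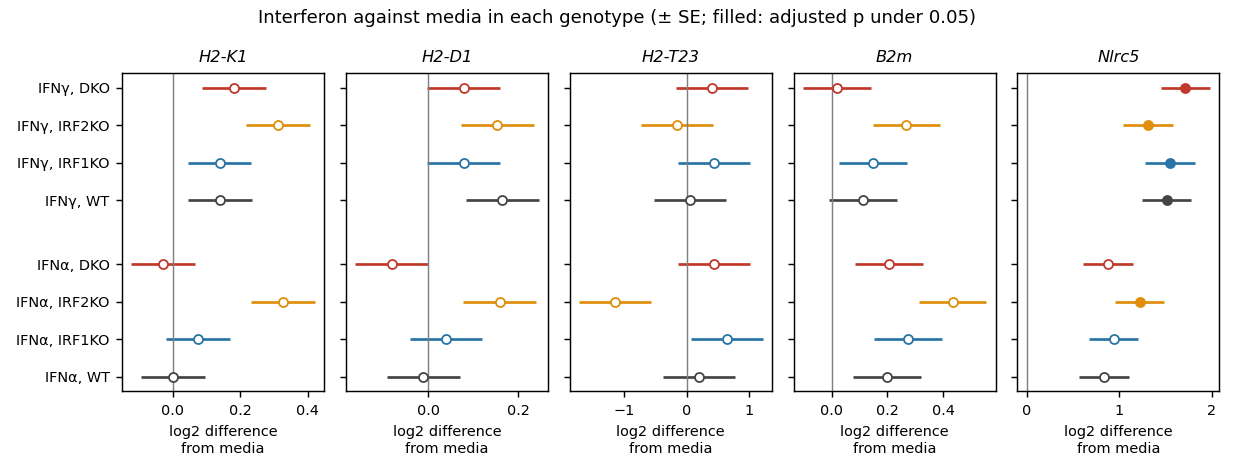
Differences of log2(TPM + 1), IFNγ or IFNα minus media within each genotype, with SE from limma, on a scale of its own for each gene. Filled points were called without a replicate block: Nlrc5 with IFNγ in all 4 genotypes and with IFNα in IRF2KO. With the replicate number as a block, Nlrc5 with IFNα was also called in DKO, IRF1KO and WT.

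After 2 h, 0 of the class I chain differences between interferon and media were called by limma, with 0.777% to 1.39% of all genes. Both libraries with IFNγ lay above both in media in all 4 genotypes for H2-K1 and H2-D1, as did those with IFNα for B2m. Libraries with IFNα overlapped with media in some genotypes for H2-K1 and H2-D1, and so did those with IFNγ for B2m. In DKO, both H2-D1 libraries with IFNα lay below both in media. In WT, the mean H2-K1 level was 261 TPM with IFNγ, 236 TPM with IFNα and 236 TPM in media, and the libraries with IFNα and in media overlapped. In IRF2KO, H2-K1 differed from media by 0.31 ± 0.09 (adjusted p = 0.227) with IFNγ and by 0.33 ± 0.09 (adjusted p = 0.193) with IFNα, and B2m by 0.27 ± 0.12 (adjusted p = 0.733) and 0.43 ± 0.12 (adjusted p = 0.154). Both IRF2KO libraries with IFNγ or IFNα were above both in media for each of the 2 genes and for H2-D1. The share of all genes that separate in this way was not counted, so the separation adds little to uncalled differences. Without IRF2KO replicate 2 of IFNα, H2-K1 (0.45, adjusted p = 0.0498) and B2m (0.60, adjusted p = 0.0413) were called. B2m in IRF1KO with IFNα had 0.27 ± 0.12 (adjusted p = 0.914). H2-D1 in WT differed with IFNγ by 0.17 ± 0.08 (adjusted p = 1) from media and by 0.18 ± 0.08 (adjusted p = 1) from IFNα, and both IFNγ libraries were above those of the other treatments. The SE of an H2-T23 difference was 0.58.

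Whether the response to interferon differed between a mutant and WT was tested directly. For IFNγ, 0 of 5 genes were called by limma for DKO, IRF2KO or IRF1KO, with 0.0929%, 0.0338% and 0.0844% of all genes, and 0 of 5 had an unadjusted p under 0.05 in each. For IFNα, 0 of 5 were called, with 0.0844%, 0.0676% and 0.0253% of all genes in the same order of mutants, and 1 of 5 had an unadjusted p under 0.05 for IRF2KO, 0 for the others. That 1 is H2-K1, whose IFNα response in IRF2KO minus that in WT was 0.33 ± 0.13 (adjusted p = 0.914), in a comparison where the median of all genes was 0.14. The SE of such a difference was 0.38 for Nlrc5, 0.81 for H2-T23, 0.17 for B2m and 0.11 for H2-D1. With so few calls among all genes, a count of 0 of 5 does not show that the responses were equal.

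The Nlrc5 level followed interferon-induced genes more closely than the chains. Over the 12 group means its nearest genes were Stat3 (r = 0.978), Serpina3f (r = 0.972) and the peptide transporter gene Tap1 (r = 0.966), with Irf1 at 0.938. Its correlation was 0.427 with H2-K1, 0.404 with H2-D1 and 0.391 with B2m. Of the 8 SXY box factors listed, the RFX, CREB and NF-Y proteins with which NLRC5 works, 0 were called by limma between any mutant and WT or between interferon and media. From 0% to 1.39% of all genes were called in these comparisons, so a count of 0 among 8 does not set these factors apart. The median difference of the 8 ran close to that of all genes: in media, DKO against WT, it was 0.11, against 0.06.

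Genes that supply and load peptides were lower in DKO cells as well. Of 13 such genes, all tested, 8 were lower and 0 higher in DKO than in WT with IFNγ, 7 and 0 with IFNα, and 8 and 0 in media, while 1.31%, 1.05% and 0.76% of all genes were called. The list's median differences were −1.59, −1.31 and −1.09. The medians of all genes were 0.00, 0.03 and 0.06. In media, Erap1 averaged 3.77 TPM in DKO and 53.1 TPM in WT, a difference of −3.50 ± 0.23 (adjusted p = 2.24e-07). Tap2, a subunit of the peptide transporter, averaged 2.38 TPM in DKO and 40.7 TPM in WT, a difference of −3.63 ± 0.29 (adjusted p = 1.39e-06). The other called genes of the list in media were the immunoproteasome genes Psmb8, Psmb9 and Psmb10, the activator genes Psme1 and Psme2, and Tap1.

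In the single knockouts fewer of these genes were called. In IRF2KO against WT, 1 gene of the 13 was higher and 3 were lower in media, and 1 was higher and 0 lower with IFNγ and with IFNα, where 0.836%, 0.802% and 0.971% of all genes were called. The higher one was Psmb8 each time, with a mean of 339 TPM in IRF2KO and 184 TPM in WT in media (0.88 ± 0.12, adjusted p = 0.000946). The 3 lower in media were Tap2 (−2.25 ± 0.29, adjusted p = 0.000401), Erap1 and Psme1. In IRF1KO 0 of the 13 were called in any treatment, where 0.236% of all genes were called with IFNγ, 0.177% with IFNα and 0% in media. The medians of the 13 there were −0.58 with IFNγ, −0.48 with IFNα and −0.20 in media. With interferon, Tap1 was higher in all 4 genotypes, in WT by 2.64 ± 0.17 (adjusted p = 5.43e-08) with IFNγ and by 1.85 ± 0.17 (adjusted p = 4.74e-06) with IFNα, and Psmb9 with IFNγ in all 4.

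The other class I heavy chains were scarce. Of 21 listed, 20 stood in the table and 9 were tested, and the highest were H2-M3, which presents formylated bacterial peptides (22.1 to 56.0 TPM), H2-T9 (7.31 to 53.2 TPM) and H2-T24 (17.9 to 47.7 TPM). Of the 9, 0 were called by limma between DKO and WT in any treatment, where 1.31% of all genes were called with IFNγ, 1.05% with IFNα and 0.76% in media. H2-M3 was higher in IRF2KO than in WT with IFNα, with means of 47.8 and 28.1 TPM (0.73 ± 0.14, adjusted p = 0.0172), and H2-T9 in DKO than in IRF1KO with IFNα (1.53 ± 0.34, adjusted p = 0.0421). Of the 4 class I-like chains outside the MHC, 2 were lower in DKO than in WT with IFNγ, 1 with IFNα and 1 in media, and 0 were higher. In these comparisons 1.31%, 1.05% and 0.76% of all genes were called. Hfe, a class I-like chain of iron regulation, was lower in all 3 treatments, with means of 11.8 and 25.8 TPM in media (−1.06 ± 0.16, adjusted p = 0.00215), and also in IRF2KO against WT in media. Cd1d1, which presents lipids, was lower in DKO with IFNγ (−0.82 ± 0.16, adjusted p = 0.0161).

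Of the 9 dendritic cell markers tested, 0 were higher and 2 lower in DKO than in WT in media, 0 and 2 with IFNγ, and 0 and 1 with IFNα, where 0.76%, 1.31% and 1.05% of all genes were called. Of 6 macrophage markers, 0 were called by limma in any of these. The dendritic cell list's median in media was 0.03, against 0.06 for all genes. Itgax, the dendritic cell integrin CD11c, averaged 37.5 TPM in DKO and 64.2 TPM in WT in media (−0.76 ± 0.13, adjusted p = 0.00595), and was lower in DKO with each interferon too. It was also lower in IRF2KO than in WT, in media and with IFNγ. H2-K1 and H2-D1 were not called there. Both H2-K1 libraries of IRF2KO lay below both of WT in each, with an uncalled difference of −0.32 ± 0.09 (adjusted p = 0.252) in media in limma's fit. Those of H2-D1 did so with IFNγ and overlapped in media. The summed dendritic cell markers in media were 5896 to 6088 TPM in DKO and 4958 to 5636 TPM in WT. That sum is mostly Cd74. Over the 24 libraries Cd74 had a median of 4195 TPM, against 5579 TPM for the sum and 49 TPM for Itgax. The summed macrophage markers in media were 2639 to 2975 TPM in DKO and 3215 to 3461 TPM in WT. The part of these markers in the class I differences was not tested.

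In the 6 single libraries, which have no replicate check, Nlrc5 was again the 1 gene of 5 that IFNα moved past 2-fold. It stood at 12.99 TPM with IFNα and 4.44 TPM at 0 h in IRF2KO, and at 11.8 TPM with IFNα and 4.53 TPM at 0 h in WT. Of all genes, 2.06% moved past 2-fold with IFNα in IRF2KO and 1.83% in WT. With LPS, which signals through TLR4, Nlrc5 stood at 3.75 TPM in IRF2KO and 4.90 TPM in WT, near its level at 0 h. LPS moved 0 of the 5 genes past 2-fold, while 4.28% of all genes passed in IRF2KO and 3.08% in WT.

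H2-K1 was the chain with the larger LPS difference in these libraries. It stood at 127 TPM with LPS, 72.9 TPM with IFNα and 79.1 TPM at 0 h in IRF2KO. In WT it stood at 131 TPM with LPS, 91.7 TPM with IFNα and 77.1 TPM at 0 h. The ratio of LPS to 0 h was 1.60 in IRF2KO and 1.69 in WT. H2-D1 had 657 TPM with LPS, 576 TPM with IFNα and 529 TPM at 0 h in IRF2KO, and 676, 649 and 536 TPM in WT, ratios of LPS to 0 h of 1.24 and 1.26. With IFNα the H2-K1 ratio to 0 h was on opposite sides of 1 in the genotypes, 0.922 in IRF2KO and 1.19 in WT.

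B2m was higher in the IRF2KO library than in its WT counterpart at each condition. It had 3197 TPM in IRF2KO and 2598 TPM in WT with LPS, 3878 TPM in IRF2KO and 2857 TPM in WT with IFNα, and 2898 TPM in IRF2KO and 2483 TPM in WT at 0 h. H2-T23 stood at 170.0 TPM in IRF2KO against 144 TPM in WT with LPS, 222 TPM against 199 TPM in WT with IFNα, and 158 TPM against 117 TPM in WT at 0 h. None of the 5 genes differed by 2-fold between IRF2KO and WT, while 1.05% of all genes did with LPS, 1.19% with IFNα and 1.22% at 0 h.

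**Figure D5:**
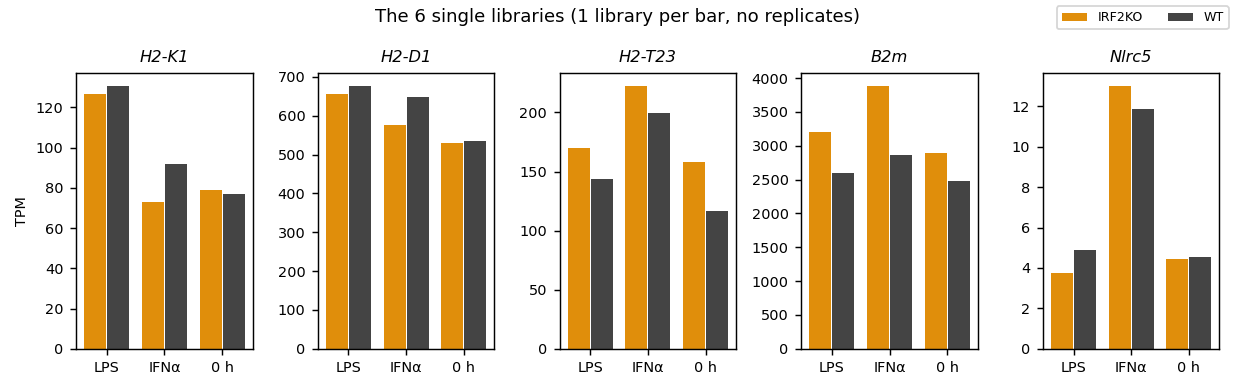
TPM of the 5 genes in the 6 single libraries, 1 library per bar, IRF2KO beside WT with LPS, with IFNα and at 0 h, on a linear axis from 0 for each gene. Nlrc5 stands out with IFNα and H2-K1 with LPS in both genotypes, and B2m is higher in IRF2KO at each condition.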

How the data were processed

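The authors deposited 1 table of TPM values (length-scaled shares of a library) for the 30 libraries, with 41346 entries for 31427 gene symbols. Per the submitters' processing notes, bcl2fastq 2.20, Bowtie 0.12.2 and RSEM were used, with the builds mm10 and GRCm38. RSEM assigns reads that fit several transcripts by estimate, so chains of near-identical sequence can exchange reads. Quantification of the 6 single libraries used a transcript set (1 transcript for each of the 5 genes) that differs from that of the 24 replicated ones (4 for H2-K1, 3 for H2-D1, 2 for H2-T23, 1 for B2m and 2 for Nlrc5). Rows that carry one symbol were added up inside either set, and levels set side by side across sets are normalised separately.

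Values of log2(TPM + 1) for 11842 genes were fitted with limma 3.58.1 (R 4.3.3), using 12 group means and a prior variance that follows the mean, with 12 residual degrees of freedom, two-sided tests and Benjamini-Hochberg adjustment within each of 30 comparisons. The method was tested on simulated data. The genes, lists and tests were chosen with earlier results of these data known. Log2 differences are printed where called or at least 2 SE. Genes named for likeness are the 3 with the highest Pearson r for each member over 12 group means. The titles give libraries of 1 replicate number the same date-like code, and the numbers were taken to pair libraries. After group means were removed, 56 of 66 same-numbered pairs had a correlation over 0.1 (median 0.23, −0.16 to 0.48). As alternatives, the fit was repeated with a pseudocount of 0.1 or 5, without the filter or with one at a mean of 5 TPM, after median-ratio or quantile scaling, with robust variances, with the replicate block, on the compared groups alone and without each library in turn. Sequences and motifs were read with Python 3.11.15 and pandas 2.3.3, and figures drawn with matplotlib 3.10.9.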

Additional observations from a re-analysis of the deposited data

How the results depend on the processing

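Counts are of the 5 genes called. With the replicate block, the count was 1 rather than 0 for DKO against IRF2KO in media, for IFNα against media in DKO, IRF1KO and WT, and for IFNγ against IFNα in WT, and 2 rather than 1 for DKO against IRF1KO in media and with IFNγ. The block changed no other call. Median-ratio scaling gave 2 for DKO against IRF2KO and 2 for DKO against IRF1KO in media. For DKO against IRF2KO with IFNγ it added B2m to H2-K1 and H2-D1. Quantile normalization gave 1 for DKO against IRF2KO in media and 1 with IFNγ. With no filter, IFNα against media in IRF2KO gave 0. Fitted on the compared groups alone, which leaves fewer samples for the spread, all 13 comparisons with a call gave 0. Leaving out 1 library gave 1 to 1 for DKO against WT in media, and 1 to 2 with IFNα and with IFNγ, against 2 for each with all libraries. Against IRF2KO it gave 1 to 2 with IFNα and 0 to 1 with IFNγ, and against IRF1KO 0 to 0 in media, 0 to 1 with IFNα and 0 to 0 with IFNγ. For IFNγ against media it gave 0 to 1 in each genotype, and for IFNα in IRF2KO 0 to 2. The log2 ratio of summed heavy chains without H2-T23 was −0.11 for IRF1KO against WT in media (−0.60 with it), −0.38 for DKO in media (−0.76) and 0.16 for IRF2KO with IFNα (−0.86). Except where a cause is given, the cause was not tested. Of the 106 differences under 2 SE, 51 changed sign under at least 1 alternative and 0 were called under any. TPM gives no depth, so no counting error could be set.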
